A study of Mus musculus with 24 samples.

Results

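The genes described here are those of glycolysis together with a set of genes that the hypoxia-inducible factor HIF1A is known to switch on, measured by bulk RNA sequencing of liver and inguinal white adipose tissue (iWAT) from mice that carried or lacked Mrs2. Their rows were found by gene name, from a list of 30 symbols that was drawn up with earlier results of these data known. The symbols matched 31 of the 54532 gene rows, because Aldoa has a pair of rows, of which the main one (ENSMUSG00000030695) is meant below wherever Aldoa is named. The list holds the factors Hif1a and Epas1, the prolyl hydroxylases Egln1 and Egln3, 5 further HIF target genes (Vegfa, Adm, Ankrd37, Ndrg1 and P4ha1), the transporters Slc2a1 and Slc16a3, 17 genes of the glycolytic steps with lactate dehydrogenase, their regulator Pfkfb3, and the gluconeogenic gene Fbp1.

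Mrs2 encodes the channel that carries magnesium into the mitochondrial matrix. The study set Mrs2 knockout (KO) mice against wild-type (WT) mice, each on a Western diet (WD), an obesogenic diet, or on a standard chow diet. Feeding began at 13 weeks of age and lasted 52 weeks. There were 3 mice in each of the 8 groups, which were KO WD liver, WT WD liver, KO chow liver, WT chow liver, and the same 4 for iWAT. The labels do not say whether liver and iWAT of the same number came from the same mouse, so the number of animals in all is not known. The 24 libraries were made from powder of the whole organ, with 50 mg of tissue for liver and 100 mg for iWAT and with the lymph nodes removed from iWAT. The labels give KO and WT but not the allele, the strain or the sex, and where KO and WT carry the same number the labels do not say that the mice were related.

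In cells with enough oxygen, EGLN enzymes hydroxylate HIF1A and EPAS1, which marks both for destruction. When oxygen is short the factors last, pair with ARNT and bind a short DNA motif near genes for glucose uptake, for nearly every glycolytic step and for blood vessel growth, and EGLN1 and EGLN3 are themselves among the targets. Liver and adipose tissue use different enzyme forms: hepatocytes use the liver pyruvate kinase and can run the pathway backwards to make glucose, while adipocytes burn glucose through HK2, aldolase A and the M form of pyruvate kinase.

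The libraries held 14717613 to 19538975 reads in liver and 15358324 to 20354594 in iWAT. Mrs2 itself read 3.90, 4.47 and 4.16 FPKM (fragments per kilobase of transcript, scaled to library size) in KO chow livers, against 6.26, 5.87 and 6.50 in WT chow livers, and 2.05, 1.74 and 2.25 in KO chow iWAT, against 4.48, 4.67 and 3.87 in WT chow iWAT. On the Western diet it read 1.95, 1.68 and 1.60 in KO iWAT, against 5.01, 2.74 and 4.72 in WT iWAT, but 4.10, 5.21 and 4.21 in livers labelled KO, against 5.10, 4.10 and 5.11 in livers labelled WT, so that these last 2 groups overlapped (log2 fold change -0.07, adjusted p = 0.692). WD livers are therefore named by their labels throughout. In the test used below (limma), Mrs2 passed as lower in KO only in WD iWAT (log2 fold change -0.88, adjusted p = 0.0234). It did not pass in chow liver (-0.48, adjusted p = 0.863) or chow iWAT (-0.82, adjusted p = 0.432), although the groups did not overlap there. Summed hepatocyte markers (6 of 6 genes measured) ran from 24360 to 78924 FPKM in livers and from 26.4 to 1042 in iWAT, and summed adipocyte markers (6 of 6) from 6826 to 13948 FPKM in iWAT and from 5.72 to 67.3 in livers. Skeletal muscle genes (12 of 12 measured) stood over 20 times above the median of the tissue in WT chow liver 3, KO WD liver 2, KO WD iWAT 1 and WT WD iWAT 1, and pancreatic acinar genes (8 of 8) in KO chow liver 1 and WT WD liver 2. Summed lymphocyte markers (7 of 7) ran from 5.81 to 210 FPKM over the iWAT libraries. They were highest in WT chow iWAT 3 (210), KO chow iWAT 3 (176) and KO WD iWAT 2 (113).

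The motif that HIF factors bind has the core ACGTG or GCGTG, which reads CACGT or CACGC on the other strand. RefSeq windows on GRCm38.p6 that run from 250 bases before to 50 bases after a gene's start were available for 28 of the 30 genes. A core on either strand stood in at least 1 window of 24 of these 28 genes (85.7%), against 46.7% of all 27025 genes with a window, and 57.1% of the genes' 42 windows held at least 2 cores, against 20.6% of all 32851 windows. A match shows only that these letters are present. The list was drawn up to hold known HIF targets, so a higher share than over all genes could follow from that choice. The listed genes also had more windows each (42 for 28 genes, against 32851 for 27025), and some windows of a gene overlap, as in Eno1. The shares are therefore not on equal terms. The 250 bases before the start are printed for the 4 genes that were higher in KO than in WT iWAT on the Western diet (Egln1, Egln3, Pfkl and Pgam1). They are also printed for a pair that was lower in WD livers labelled KO (Hk2 and P4ha1). This pair are examples from 11 members called lower there and do not stand for them all. Windows of others of the 11 held from 0 cores (1 window each of Pkm, Aldoa and Hk1) to 5 (another of Hk1). Sequences run 5′ to 3′ on the gene's strand, with every core in capitals.
Egln1: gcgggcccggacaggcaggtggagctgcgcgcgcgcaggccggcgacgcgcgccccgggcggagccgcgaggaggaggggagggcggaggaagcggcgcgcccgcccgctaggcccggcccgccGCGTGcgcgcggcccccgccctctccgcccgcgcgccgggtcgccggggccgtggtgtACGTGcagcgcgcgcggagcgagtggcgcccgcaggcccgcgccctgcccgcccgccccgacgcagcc
Egln3: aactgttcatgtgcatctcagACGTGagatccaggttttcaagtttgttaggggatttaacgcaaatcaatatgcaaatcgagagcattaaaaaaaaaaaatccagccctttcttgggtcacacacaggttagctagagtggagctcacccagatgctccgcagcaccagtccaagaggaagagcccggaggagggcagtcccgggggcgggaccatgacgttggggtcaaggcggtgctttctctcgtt
Pfkl: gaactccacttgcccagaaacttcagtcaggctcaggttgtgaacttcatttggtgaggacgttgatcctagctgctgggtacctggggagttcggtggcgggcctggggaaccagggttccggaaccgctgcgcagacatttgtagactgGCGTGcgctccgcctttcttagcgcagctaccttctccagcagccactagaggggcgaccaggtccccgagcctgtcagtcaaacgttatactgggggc
Pgam1: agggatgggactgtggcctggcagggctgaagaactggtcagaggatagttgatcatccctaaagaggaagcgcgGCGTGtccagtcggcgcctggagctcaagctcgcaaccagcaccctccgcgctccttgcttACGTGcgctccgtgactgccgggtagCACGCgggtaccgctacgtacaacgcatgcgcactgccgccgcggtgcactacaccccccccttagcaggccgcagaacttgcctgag
Hk2: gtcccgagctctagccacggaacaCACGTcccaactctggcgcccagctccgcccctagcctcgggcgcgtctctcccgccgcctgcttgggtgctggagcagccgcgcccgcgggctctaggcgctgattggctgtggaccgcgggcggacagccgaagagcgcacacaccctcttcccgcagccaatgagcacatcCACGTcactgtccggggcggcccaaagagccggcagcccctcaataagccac
P4ha1: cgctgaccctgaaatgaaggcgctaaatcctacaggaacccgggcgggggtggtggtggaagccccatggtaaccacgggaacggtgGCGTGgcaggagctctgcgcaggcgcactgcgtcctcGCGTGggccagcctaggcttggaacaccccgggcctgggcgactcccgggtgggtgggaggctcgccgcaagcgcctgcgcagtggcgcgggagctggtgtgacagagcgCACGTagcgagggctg
These stretches lie at chr8:124949255-124949504 on the minus strand (Egln1), chr12:54203875-54204124 on the minus strand (Egln3), chr10:78009808-78010057 on the minus strand (Pfkl), chr19:41911621-41911870 on the plus strand (Pgam1), chr6:82774455-82774704 on the minus strand (Hk2) and chr10:59323046-59323295 on the plus strand (P4ha1) of GRCm38.p6. Pgam1 and P4ha1 each held 3 cores, Egln1 and Hk2 each 2, and Pfkl and Egln3 each 1. The core nearest the start was that of P4ha1, at base -16, and the farthest was that of Egln3, at base -229.

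In WT mice on chow, liver and iWAT held different enzyme forms for the same step. Liver was far higher in the liver pyruvate kinase Pklr and in fructose-bisphosphatase Fbp1, which reverses the phosphofructokinase step, while iWAT was higher in hexokinase Hk2, aldolase Aldoa, pyruvate kinase Pkm and the regulator Pfkfb3, whose product makes the activator of phosphofructokinase. Of the 31 rows tested across all 24 libraries, 8 were called higher and 11 lower in liver at an adjusted p under 0.05, and of all 15254 genes 32.5% were called higher and 31.5% lower (64.0% in all). Rows were tested at a mean of at least 0.5 FPKM over the 24 libraries. Fbp1, Pklr and Aldoc reached this only through liver and so had to differ. Their means over the iWAT libraries were 0.173, 0.0209 and 0.394 FPKM. Quantile normalization gave 5 members higher and 18 lower, with a median log2 fold change over the members of -0.48, against 0.05 without it. Fold changes here and below are differences of log2(FPKM + 1), the first-named group minus the second, with their standard error (SE).

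Fbp1 read 639, 663 and 674 FPKM in WT chow livers, against 0.104, 0.130 and 0.341 in WT chow iWAT (log2 fold change 9.12 ± 0.09). Pklr, which carries out the last step in hepatocytes, read 57.6, 121 and 137 FPKM in liver, against 0.0137, 0 and 0.0239 in iWAT (6.62 ± 0.24). Pkm, its counterpart in most other cells, read 6.18, 8.56 and 5.71 FPKM in liver, against 65.8, 61.9 and 62.1 in iWAT (-3.06 ± 0.23). None of these groups overlapped. Hk2 read 0.532, 0.822 and 1.17 FPKM in liver, against 18.7, 28.4 and 19.1 in iWAT (-3.64 ± 0.21). Aldoa read 34.4, 41.4 and 54.5 FPKM in liver, against 396, 341 and 301 in iWAT (-2.98 ± 0.23), and was the most abundant member of iWAT. Pfkfb3 read 1.23, 9.20 and 7.02 FPKM in liver, against 147, 44.5 and 73.1 in iWAT (-3.81 ± 0.42). Again liver and iWAT did not overlap, although Pfkfb3 varied several-fold within each tissue.

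Among the remaining glycolytic genes Pgk1, whose enzyme makes the first ATP of the pathway, read 149, 163 and 154 FPKM in liver, against 40.0, 40.3 and 40.3 in iWAT (1.92 ± 0.17), and Aldoc, a minor aldolase, read 10.4, 11.1 and 9.94 FPKM in liver, against 0.244, 0.447 and 0.332 in iWAT (3.10 ± 0.24). Neither gene overlapped between the tissues. Hk1 read 0.745, 1.11 and 0.513 FPKM in liver, against 3.89, 3.57 and 4.20 in iWAT (-1.46 ± 0.13), and Pfkp read 0.468, 0.744 and 0.169 in liver, against 6.17, 4.96 and 4.32 in iWAT (-2.08 ± 0.14). Pfkl, the phosphofructokinase named for liver, read 8.84, 7.41 and 8.15 FPKM in liver, against 12.4, 16.4 and 11.6 in iWAT (-0.65 ± 0.24). Tpi1 (0.63 ± 0.14), Pgam1 (0.57 ± 0.17) and Ldha (0.55 ± 0.24) were called higher in liver, but all 3 were lower in liver under quantile normalization (-0.45, -0.30 and -0.69). Tpi1 read 159, 147 and 146 FPKM in liver, against 111, 98.9 and 82.6 in iWAT, Pgam1 read 60.3, 78.6 and 64.6 in liver, against 49.0, 48.3 and 38.7 in iWAT, and Ldha read 388, 198 and 179 in liver and 176, 187 and 133 in iWAT. Of these only Ldha overlapped.

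Of the oxygen-sensing genes, Egln3 read 8.42, 7.69 and 8.26 FPKM in liver, against 2.34, 0.747 and 1.37 in iWAT (1.93 ± 0.22), whereas Egln1 read 10.5, 10.5 and 11.3 in liver, against 20.9, 22.3 and 16.2 in iWAT (-0.81 ± 0.15). Epas1, the HIF factor of vessel cells among others, read 58.4, 51.2 and 58.1 FPKM in liver, against 70.3, 96.1 and 67.4 in iWAT (-0.46 ± 0.19). These 3 genes were apart between the tissues. Of the HIF targets, Ndrg1, a stress-response gene, read 3.52, 1.57 and 1.36 FPKM in liver, against 9.61, 13.5 and 12.1 in iWAT (-2.07 ± 0.21), and Adm read 1.06, 2.42 and 0.801 in liver, against 4.20, 2.92 and 2.18 in iWAT (-0.79 ± 0.25), with overlap. Hif1a was not called, and it read 10.9, 10.4 and 12.7 FPKM in WT chow livers and 10.01, 13.0 and 9.95 in WT chow iWAT.

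**Figure D1:**
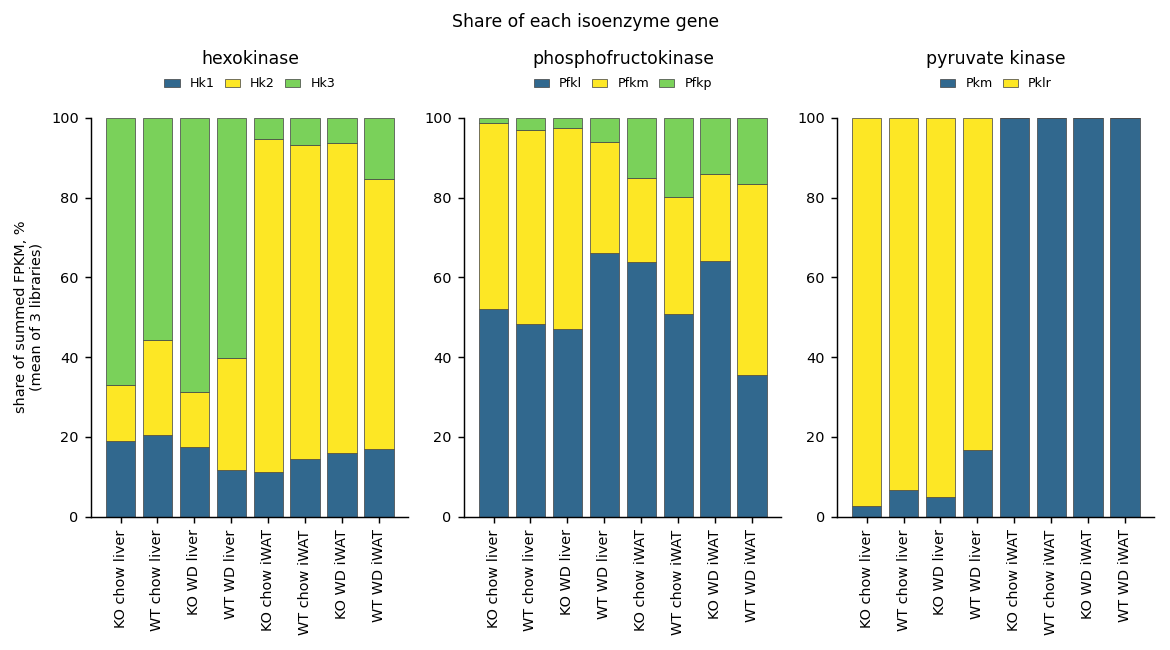
Mean share (in %, 3 libraries a group) of each gene in the summed FPKM of its enzyme family in the 8 groups, KO left of WT. Pkm made up 4.93% of pyruvate kinase FPKM in WD livers labelled KO and 16.7% in WD livers labelled WT, while in iWAT it made up nearly all of it in both genotypes.

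The family shares plotted as stacked bars put these forms on a common scale. Among Hk1, Hk2 and Hk3, Hk2 made up 78.7% ± 5.3 of the FPKM in WT chow iWAT (SD, n = 3), and in WT chow liver Hk3, the hexokinase of blood-derived cells, made up 55.8% ± 11.95. Pfkl made up 63.8% ± 3.0 of phosphofructokinase FPKM in KO chow iWAT, against 50.9% ± 2.9 in WT chow iWAT, and the 3 KO values, from 61.7 to 67.3%, lay above the 3 WT values, from 48.0 to 53.9%.

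On the Western diet, iWAT of KO mice held more RNA of a pair of glycolytic genes and of both prolyl hydroxylases than iWAT of WT mice. Egln1, Egln3, Pfkl and Pgam1 were called higher, and the HIF target Adm, which encodes the vessel-dilating peptide adrenomedullin, was called lower. These are 4 and 1 of the 27 member rows that passed the filter of a mean of 0.5 FPKM, or 14.8% and 3.70%, against 3.20% and 1.05% of all 14685 genes tested (4.25% in either direction), and the members' median log2 fold change was 0.40, against -0.02 over all genes tested. At an unadjusted p under 0.05 there were 15 members, against 18.6% of all genes, and 13 of 27 had no overlap between genotypes (11 with every KO mouse higher, 2 with every KO mouse lower), against 25.0% of all genes. In bulk tissue, a change in how many cells of a type there are and a change in RNA per cell cannot be told apart.

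Egln1, the main oxygen sensor among the prolyl hydroxylases, read 41.3, 39.4 and 27.9 FPKM in KO WD iWAT, against 23.5, 21.2 and 19.3 in WT WD iWAT (log2 fold change 0.72 ± 0.17, adjusted p = 0.0425). Egln3, the form that HIF induces most strongly in many cells, read 2.83, 2.40 and 1.68 FPKM in KO, against 0.624, 0.495 and 0.465 in WT (1.10 ± 0.23, adjusted p = 0.0288). Adm read 3.33, 2.20 and 4.40 FPKM in KO, against 7.86, 6.43 and 7.56 in WT (-0.97 ± 0.23, adjusted p = 0.0473). In all 3 genes the genotypes were fully apart. The call of Adm held in 3 of 15 alternatives and was lost with a pseudocount of 0.1, quantile normalization, edgeR and a replicate block (adjusted p of up to 0.354 over the alternatives). The factors themselves did not pass the test: Hif1a read 12.04, 13.0 and 12.6 FPKM in KO and 11.8, 14.6 and 11.6 in WT, and Epas1 read 87.3, 74.1 and 76.4 in KO and 77.4, 61.9 and 75.2 in WT, with overlapping values for both.

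Pfkl, a catalytic subunit of the committed step of glycolysis, read 52.4, 66.5 and 24.6 FPKM in KO WD iWAT, against 12.05, 16.8 and 14.6 in WT WD iWAT (1.56 ± 0.31, adjusted p = 0.0272). Pgam1, which moves the phosphate of phosphoglycerate late in the pathway, read 152, 148 and 92.1 FPKM in KO, against 50.2, 69.1 and 58.5 in WT (1.10 ± 0.21, adjusted p = 0.0235). Every KO value lay above every WT value in both genes, and in both KO mouse 3 was the lowest of the KO mice. Other glycolytic genes did not pass, and their values are given with that limit. Gpi1, the second enzyme of the pathway, read 50.7, 59.2 and 36.4 FPKM in KO, against 33.7, 29.3 and 29.3 in WT (0.62 ± 0.17, adjusted p = 0.0679). Pkm read 159.5, 168 and 92.0 FPKM in KO, against 87.7, 75.0 and 73.2 in WT (0.78 ± 0.22, adjusted p = 0.0861). Both genes were higher in every KO mouse than in any WT mouse, and the same was true of Hk1, Hk2, Pfkp and Ldha, with log2 fold changes of 0.30, 0.63, 0.40 and 0.41 and adjusted p from 0.121 to 0.261.

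Aldoa read 793, 799.5 and 638 FPKM in KO WD iWAT, against 650.1, 401 and 277 in WT WD iWAT (0.83 ± 0.28, adjusted p = 0.137), and Pgk1 read 133, 130.5 and 72.8 FPKM in KO, against 76.6, 59.7 and 52.2 in WT (0.79 ± 0.22, adjusted p = 0.0813). In these genes the highest WT value, that of WT mouse 1, exceeded the lowest KO value, that of KO mouse 3. Pfkm, the muscle phosphofructokinase, read 29.6, 8.95 and 9.94 FPKM in KO and 64.7, 14.01 and 8.95 in WT (-0.52 ± 0.62), and its highest value in each genotype was in the library with the highest summed muscle markers, 1359.7 FPKM in KO mouse 1 and 4556 FPKM in WT mouse 1, against 17.1 to 336 FPKM in the other 4. Vegfa, the vessel growth factor, read 69.4, 51.1 and 55.2 FPKM in KO and 50.3, 59.8 and 36.3 in WT, and the glucose transporter Slc2a1 read 3.34, 4.53 and 5.24 in KO and 3.82, 3.67 and 3.65 in WT, with overlap in both.

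**Figure D2:**
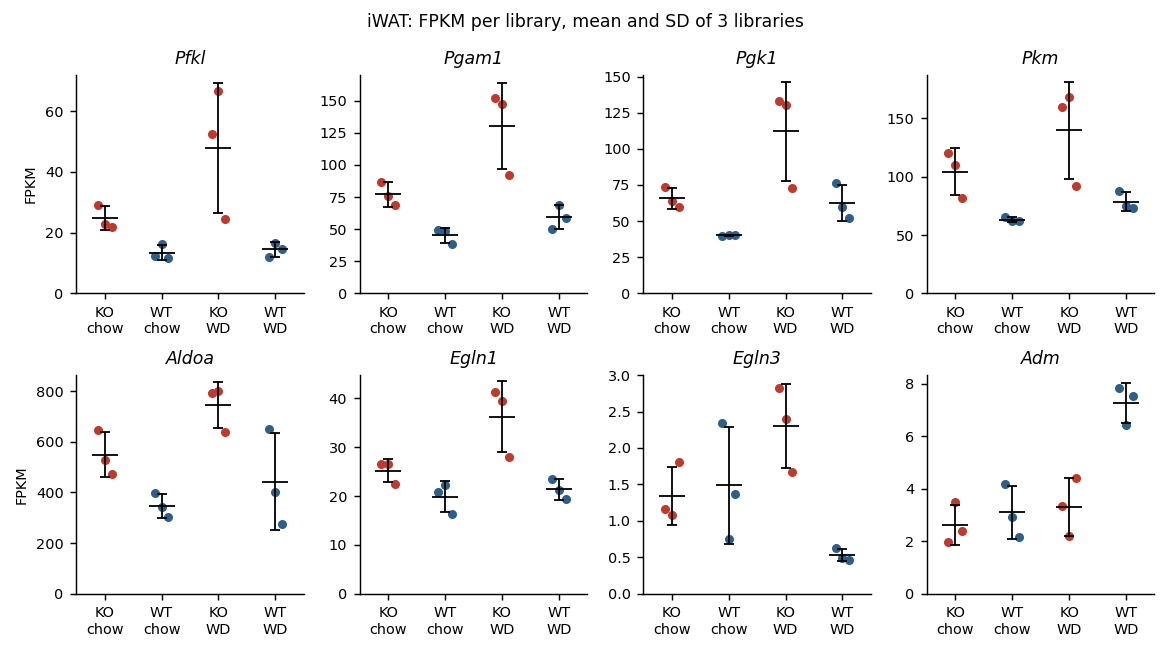
FPKM (vertical axis, linear, from 0) of 8 members in the 12 iWAT libraries. Each dot is a mouse, KO in red and WT in blue, and bars show the mean and SD of 3 mice. On the Western diet the 3 KO values lie above the 3 WT values for Pfkl, Pgam1, Pkm, Egln1 and Egln3 and below them for Adm.

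Markers of brown and beige adipocytes (5 of 5 genes measured) moved with these genes. Their summed level was 282 to 1312 FPKM in KO WD iWAT, against 8.64 to 71.5 FPKM in WT WD iWAT, and the defining marker Ucp1 read 651, 699 and 129 FPKM in KO, against 27.5, 28.0 and 0.168 in WT. The only marker of the 5 at 0 was Elovl3, in WT mouse 3. Within the KO mice, mouse 3 had the lowest Ucp1 and also the lowest Pfkl, Pgam1, Egln1, Egln3, Pkm and Pgk1. The part of these cells in the result was not tested.

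The WD iWAT calls in limma's test rested on few mice. Without KO mouse 1 all 5 calls ended (adjusted p from 0.107 to 0.157), as they did without KO mouse 2 (0.102 to 0.161), WT mouse 1 (0.0568 to 0.106) or WT mouse 3 (0.102 to 0.160), without WT mouse 2 only that of Pgam1 remained (0.0563 to 0.107 for the other 4), and without KO mouse 3 all 5 remained and 9 members were called. Across these and the other settings tried the log2 fold change of Pfkl stayed between 1.27 and 1.97 and that of Pgam1 between 0.86 and 1.34. With no filter on low values no member was called, nor without KO mouse 1 and WT mouse 1 together, the libraries highest in muscle genes, and the adjusted p of Egln1, Egln3, Adm, Pfkl and Pgam1 reached at most 0.354 in any setting. The authors' deposited table for this comparison lists only genes with an unadjusted p under 0.05. In it 9 of the 16 members listed had an adjusted p under 0.05, against 1281 of all 3117 genes listed. Among the 9 were Egln3 (log2 fold change 2.15, adjusted p = 2.61e-07) and Pfkl (1.76, adjusted p = 2.86e-05).

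On chow, several enzymes of glycolysis were measured higher in iWAT of KO mice, without a call. No gene of the 14685 tested passed in limma (0%), nor in edgeR, and DESeq2 called 70 genes and 0 members. At an unadjusted p under 0.05 there were 8 members, against 5.65% of all genes (Gpi1, Pfkl, Aldoa, Pgk1, Pgam1, Eno1, Pkm and Ldha), all glycolytic enzymes and all higher in KO. Every KO mouse lay above every WT mouse in 9 of the 27 members tested, and in no member below, against 10.8% of all genes without overlap in either direction. Pgam1 read 87.1, 75.5 and 68.4 FPKM in KO chow iWAT, against 49.0, 48.3 and 38.7 in WT chow iWAT (0.75 ± 0.21, adjusted p = 0.708). Pgk1 read 73.6, 63.8 and 59.6 FPKM in KO, against 40.0, 40.3 and 40.3 in WT (0.69 ± 0.22, adjusted p = 0.779). Pfkl read 29.2, 23.0 and 21.9 FPKM in KO, against 12.4, 16.4 and 11.6 in WT (0.83 ± 0.31, adjusted p = 0.802). All 3 were apart between genotypes, and the WT values of Pgk1 lay very close together. Pkm read 121, 110.4 and 81.6 FPKM in KO, against 65.8, 61.9 and 62.1 in WT (0.69 ± 0.22, adjusted p = 0.779), and Aldoa read 645, 529 and 471 in KO, against 396, 341 and 301 in WT (0.66 ± 0.28, adjusted p = 0.850), again with no overlap. The factors were not called on chow either, with Hif1a at 12.2, 13.6 and 11.4 FPKM in KO and 10.01, 13.0 and 9.95 in WT and Epas1 at 75.7, 86.2 and 63.2 in KO and 70.3, 96.1 and 67.4 in WT. Egln3, called on the Western diet, read 1.16, 1.08 and 1.80 FPKM in KO and 2.34, 0.747 and 1.37 in WT, and Adm read 1.97, 3.49 and 2.40 in KO and 4.20, 2.92 and 2.18 in WT, both with overlap. Brown adipocyte markers summed to 244 to 457 FPKM in KO chow iWAT, against 32.1 to 53.0 FPKM in WT chow iWAT, and Ucp1 read 158, 89.8 and 92.6 FPKM in KO, against 0.0270, 0.568 and 0.0710 in WT, and their part was not tested here either. The authors' deposited table for chow iWAT, again of genes with an unadjusted p under 0.05, lists 8 members and 876 genes in all. It gives an adjusted p under 0.05 to 104 genes and to 4 members. These members are Pfkl (log2 fold change 0.89, adjusted p = 0.00984), Pgk1 (0.72, adjusted p = 0.00116), Pgam1 (0.78, adjusted p = 0.00631) and Pkm (0.73, adjusted p = 0.0345).

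In livers on the Western diet most of the members called were lower in those labelled KO. Livers labelled KO held less Hk1, Hk2, Hk3, Pfkl, Pfkp, Aldoa, Aldoc, Eno1 and Pkm and less of the HIF targets Adm and P4ha1 than livers labelled WT, and more Pfkm and Vegfa. Of the 29 member rows tested, 2 were called higher and 11 lower (6.90% and 37.9%), against 10.6% and 10.4% of all 14019 genes (21.0% in either direction), and the members' median log2 fold change was -0.50, against 0.07 over all genes tested. No overlap between the labelled genotypes was found in 17 of 29 members, against 42.9% of all genes. Median-of-ratios scaling gave 0 members higher and 11 lower, and quantile normalization 1 and 12, while over all genes these scalings moved the share of calls that were higher to 37.6% and 42.7%, against 50.6% in the fit used here.

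Hk2, the inducible hexokinase, read 0.292, 0.849 and 0.456 FPKM in WD livers labelled KO, against 3.08, 3.89 and 3.44 in WD livers labelled WT (log2 fold change -1.56 ± 0.16, adjusted p = 0.000646). Hk3 read 2.07, 3.55 and 2.13 FPKM in livers labelled KO, against 7.76, 5.35 and 10.5 in those labelled WT (-1.29 ± 0.31, adjusted p = 0.0157). Hk1, the hexokinase of most tissues, read 0.707, 0.680 and 0.499 FPKM in livers labelled KO, against 1.74, 1.14 and 1.63 in those labelled WT (-0.62 ± 0.15, adjusted p = 0.0184). All 3 hexokinases were lower in each liver labelled KO than in any labelled WT.

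Pkm read 5.09, 8.86 and 7.73 FPKM in livers labelled KO, against 27.7, 17.7 and 26.8 in those labelled WT (-1.61 ± 0.22, adjusted p = 0.00195), while Pklr read 92.8, 173 and 156 FPKM in livers labelled KO and 138, 128 and 99.3 in those labelled WT, with overlap (0.17 ± 0.33). The Pkm share of pyruvate kinase FPKM was 4.93% ± 0.24 in livers labelled KO, against 16.7% ± 4.6 in those labelled WT (SD, n = 3 each). Aldoa read 31.4, 41.3 and 35.7 FPKM in livers labelled KO, against 71.2, 51.9 and 58.9 in those labelled WT (-0.73 ± 0.17, adjusted p = 0.0149), and Aldoc read 0.778, 0.810 and 0.939 in livers labelled KO, against 4.33, 2.03 and 1.72 in those labelled WT (-0.94 ± 0.21, adjusted p = 0.0125). Neither aldolase overlapped between the labels.

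The 3 phosphofructokinase genes did not move together in WD livers. Pfkl read 8.76, 8.71 and 7.98 FPKM in livers labelled KO, against 14.9, 11.3 and 11.3 in those labelled WT (-0.50 ± 0.13, adjusted p = 0.0216), and Pfkp, the platelet form, read 0.296, 0.521 and 0.489 in livers labelled KO, against 1.33, 0.971 and 1.11 in those labelled WT (-0.57 ± 0.16, adjusted p = 0.0262). Pfkm ran the other way, with 9.93, 10.5 and 7.14 FPKM in livers labelled KO, against 5.35, 5.49 and 4.83 in those labelled WT (0.70 ± 0.20, adjusted p = 0.0352). Pfkp was close to the filter, with a mean of 0.562 FPKM over the 12 livers, and under 0.5 FPKM on average in every group but WD livers labelled WT, so that it passed only through the group where it was high and had to differ. Without it 2 of 28 members were called higher and 10 lower, with a median of -0.39. Skeletal muscle markers summed to 7.30 to 98.4 FPKM in livers labelled KO, against 1.01 to 4.60 FPKM in those labelled WT, and the liver labelled KO with 98.4 FPKM also had the highest Pfkm. Without that liver the calls of Pfkm, Vegfa and Adm ended (adjusted p from 0.0558 to 0.117). The loss was not particular to that liver, as each of these calls ended in 5 of the 6 fits that left out 1 WD liver. That of Pfkm also ended without liver 1 labelled KO and without each liver labelled WT (0.057 to 0.108). The part of muscle RNA was not tested further.

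Of the HIF targets, Adm read 0.490, 0.681 and 0.578 FPKM in WD livers labelled KO, against 3.11, 1.34 and 1.68 in those labelled WT (-0.90 ± 0.25, adjusted p = 0.0279). P4ha1, a subunit of the enzyme that hydroxylates collagen, read 2.53, 4.16 and 3.43 FPKM in livers labelled KO, against 8.58, 5.25 and 5.91 in those labelled WT (-0.79 ± 0.24, adjusted p = 0.0437). Vegfa, in contrast, read 55.7, 64.9 and 53.1 FPKM in livers labelled KO, against 44.4, 43.7 and 34.8 in those labelled WT (0.49 ± 0.15, adjusted p = 0.0374). All 3 were fully apart, but the calls depended on the processing. That of Vegfa held in 4 of 17 alternatives, with a log2 fold change from 0.24 to 0.55 and an adjusted p of up to 0.248, that of Adm in 8 of 16 and that of P4ha1 in 7 of 16. Ndrg1 read 1.62, 1.12 and 1.70 FPKM in livers labelled KO, against 2.94, 2.10 and 2.56 in those labelled WT (-0.51 ± 0.22, adjusted p = 0.123). The lactate exporter Slc16a3, under the filter in liver, read 0.149, 0.359 and 0.288 in livers labelled KO, against 1.60, 0.722 and 0.849 in those labelled WT, with no test, and Ankrd37 read 0.412, 0.334 and 0.664 in livers labelled KO and 2.55, 0.845 and 0.603 in those labelled WT (-0.58 ± 0.33, adjusted p = 0.244).

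The remaining genes of the oxygen-sensing step and of lower glycolysis were not called in WD livers. Hif1a read 10.4, 10.04 and 9.30 FPKM in livers labelled KO and 9.99, 10.5 and 8.57 in those labelled WT, and Epas1 read 50.9, 81.4 and 49.7 in livers labelled KO, against 50.4, 37.1 and 38.5 in those labelled WT (0.50 ± 0.20, adjusted p = 0.105). The log2 fold changes of Egln1, Egln3, Slc2a1, Tpi1, Pgk1 and Pgam1 lay between -0.12 and 0.05. Tpi1 and Pgk1 were among the 4 most abundant members of liver, with 139, 138 and 132 and 131, 141 and 143 FPKM in livers labelled KO, against 154, 145 and 132 and 134, 145 and 124 in those labelled WT. Ldha, which turns pyruvate into lactate, read 311, 242 and 362 FPKM in livers labelled KO and 215, 299 and 279 in those labelled WT (0.20 ± 0.27), and Fbp1 read 613, 679 and 745 in livers labelled KO and 554, 564 and 579 in those labelled WT (0.26 ± 0.10, adjusted p = 0.105).

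**Figure D3:**
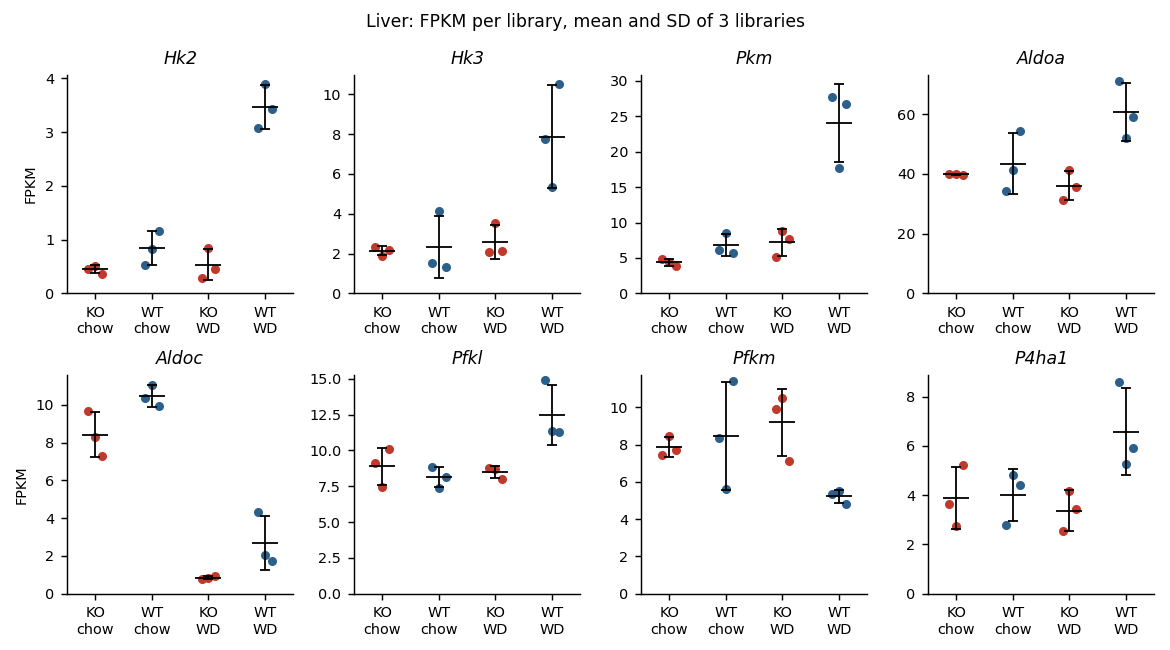
FPKM (vertical axis, linear, from 0) of 8 members in the 12 liver libraries, as labelled. Each dot is a mouse, KO in red and WT in blue, and bars show the mean and SD of 3 mice. On the Western diet the 3 livers labelled KO lie below the 3 labelled WT for Hk2, Hk3, Pkm, Aldoa, Aldoc, Pfkl and P4ha1 and above them for Pfkm.

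Markers of macrophages (10 of 10 genes measured, none at 0) summed to 149 to 179 FPKM in WD livers labelled KO, against 421 to 1069 FPKM in those labelled WT, and fibroblast markers (6 of 6, none at 0) to 37.2 to 40.5 FPKM, against 117 to 192 FPKM. Neutrophil markers (6 of 6) summed to 2.97 to 8.21 FPKM in livers labelled KO, against 21.7 to 37.4 FPKM in those labelled WT, with Cxcr2 at 0 in liver 2 and Retnlg and Mmp8 at 0 in liver 3 labelled KO. The liver labelled WT with the lowest macrophage sum, liver 2, had the lowest Hk1, Hk3, Pfkp and Pkm of the 3 and the highest Hk2. The part of these cells in the result was not tested.

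Hk2 and Pkm stayed called in WD livers in every one of the 16 and 17 alternatives that could be computed for them, and Aldoc in 16 of 17. Without liver 1 or 3 labelled KO or liver 1 or 3 labelled WT the number of members called was 4, 5, 3 or 5, and the adjusted p of the calls that ended lay between 0.0543 and 0.165. With mean FPKM of at least 5 the count was 7 of 19 members tested, and without all livers high in muscle genes it was 6. The authors' deposited table gives 16 of the 19 members it lists an adjusted p under 0.05, and 4217 of all 5970 genes it lists. It lists only genes with an unadjusted p under 0.05. Hk2 had a log2 fold change there of -2.73 (adjusted p = 1.21e-13).

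**Figure D4:**
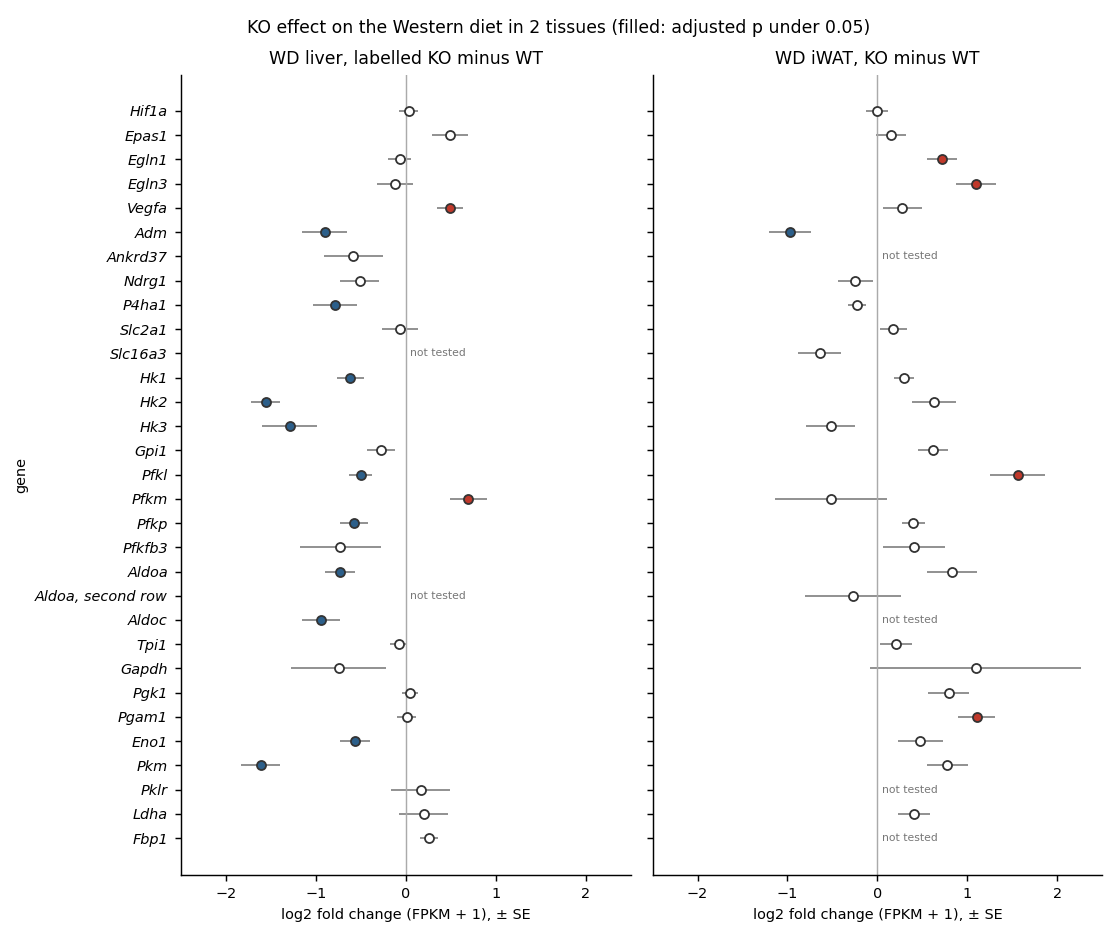
Log2 fold change (horizontal axis, log2(FPKM + 1), KO minus WT, with SE bars) of the 29 member rows tested in WD liver as labelled (left) and the 27 tested in WD iWAT (right), with the others of the 31 marked as not tested. Filled points have an adjusted p under 0.05, red for higher and blue for lower. Pfkl lies at -0.50 in liver and at 1.56 in iWAT, and Adm is below 0 in both.

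Pfkl was called lower in WD livers labelled KO and higher in KO WD iWAT, and Adm was called lower in both tissues. The difference of the KO effect between tissues on the Western diet was tested in a single fit of all 24 libraries, a comparison added after the first results were seen. That fit held no term for the mouse, so that any pairing of liver and iWAT of the same number was left out. Of the 31 rows, 11 were called lower in liver than in iWAT and 0 higher, or 35.5% and 0%, against 3.31% and 4.12% of all 15254 genes (7.43% in either direction). These were Egln1, Egln3, Hk1, Hk2, Gpi1, Pfkl, Pfkp, Aldoa, Pgam1, Eno1 and Pkm. The difference in KO effect was -2.39 ± 0.32 for Pkm (adjusted p = 0.000264), -2.19 ± 0.29 for Hk2 (adjusted p = 0.000264) and -2.06 ± 0.35 for Pfkl (adjusted p = 0.00165). Of these 11, only Pfkl was called in both WD liver and WD iWAT. Egln1, Egln3 and Pgam1 were called in WD iWAT alone. Hk1, Hk2, Pfkp, Aldoa, Eno1 and Pkm were called in WD liver alone, and Gpi1 in neither tissue. Without the 4 libraries highest in muscle genes 6 members were called, and without all 6 high in muscle genes 4. On chow the same difference gave 0 members in limma, edgeR and DESeq2, with 6 members at an unadjusted p under 0.05 (3.35% of all genes), of which Pkm was the farthest at -1.22 ± 0.32 (adjusted p = 0.940).

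Between Western diet and chow, livers labelled WT differed in several of the genes called lower in WD livers labelled KO. Of 29 members, 7 were called higher and 2 lower (24.1% and 6.90%), against 9.72% and 9.49% of all genes, and the members' median log2 fold change was 0.25, against -0.05 over all genes tested. The WD livers labelled WT enter both this comparison and the preceding liver one, and the comparisons are therefore not independent. Hk2 read 3.08, 3.89 and 3.44 FPKM in WD livers, against 0.532, 0.822 and 1.17 in chow livers (1.29 ± 0.16, adjusted p = 0.00114), and Pkm read 27.7, 17.7 and 26.8 in WD livers, against 6.18, 8.56 and 5.71 in chow livers (1.67 ± 0.22, adjusted p = 0.00134). Hk3 read 7.76, 5.35 and 10.5 FPKM in WD livers, against 1.55, 4.14 and 1.34 in chow livers (1.46 ± 0.31, adjusted p = 0.00990). No WD liver overlapped a chow liver in these 3 genes. Hk1 (0.49 ± 0.15), Pfkl (0.55 ± 0.13), Pfkp (0.56 ± 0.16) and Eno1 (0.60 ± 0.17) were also called higher, Eno1 with 151, 161 and 138 FPKM in WD livers, against 86.7, 117 and 93.6 in chow livers. Pfkp passed the filter on low values only through WD livers labelled WT and so had to differ, and without it 6 of 28 members were called higher and 2 lower.

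The 2 members called lower on the Western diet in livers labelled WT were Aldoc and Vegfa. Aldoc read 4.33, 2.03 and 1.72 FPKM in WD livers, against 10.4, 11.1 and 9.94 in chow livers (-1.70 ± 0.21, adjusted p = 0.00112), and Vegfa read 44.4, 43.7 and 34.8 in WD livers, against 67.6, 57.4 and 82.9 in chow livers (-0.74 ± 0.15, adjusted p = 0.00757). Macrophage markers summed to 421 to 1069 FPKM in WD livers labelled WT, against 126 to 280 FPKM in WT chow livers, and WT chow liver 2, which had 280, also had the highest Hk1, Hk3 and Pkm of the chow livers. Their part was not tested. Vegfa, Hk2, Hk3, Aldoc and Pkm remained called whichever of the 6 livers was left out, and without WD liver 1 labelled WT the count fell to 5, with an adjusted p of 0.0527 to 0.151 for Hk1, Pfkl, Pfkp and Eno1. Without the livers high in muscle genes, 3 members were called.

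In livers labelled KO, 1 member was called between the diets. Aldoc read 0.778, 0.810 and 0.939 FPKM in WD livers labelled KO, against 9.67, 8.27 and 7.28 in chow livers (-2.35 ± 0.21, adjusted p = 0.00149), out of 0.271% of all genes called lower and 0.150% called higher. It remained called in all 17 alternatives. Hk2 read 0.292, 0.849 and 0.456 FPKM in WD livers, against 0.456, 0.519 and 0.370 in chow livers (0.07 ± 0.16, adjusted p = 0.881), and Pkm read 5.09, 8.86 and 7.73 in WD livers, against 4.88, 4.36 and 3.84 in chow livers (0.59 ± 0.22, adjusted p = 0.238). Pkm did not overlap between the diets, and Hk2 did. Whether diet acted differently in the genotypes was tested as an interaction, which called 77 of 14019 genes (0.549%) and 0 members in limma, with 7 of 29 members at an unadjusted p under 0.05 (16.4% of all genes), 0 by edgeR and 5 by DESeq2 (3.68% of all genes). Hk2 stood at the threshold, with an interaction of -1.22 ± 0.23 and an adjusted p of 0.05002, and Pkm had -1.08 ± 0.31 (adjusted p = 0.149).

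On chow, no member was called between livers of KO and WT mice by limma, edgeR or DESeq2, with 0% of 14019 genes called in limma and 2 members at an unadjusted p under 0.05, against 4.81% of all genes. Those were Pkm, with 4.88, 4.36 and 3.84 FPKM in KO chow livers, against 6.18, 8.56 and 5.71 in WT chow livers (-0.53 ± 0.22, adjusted p = 0.863), and Fbp1, with 771, 727 and 828 in KO, against 639, 663 and 674 in WT (0.23 ± 0.10, adjusted p = 0.863). Neither overlapped between the genotypes, as in 5 of the 29 members tested and in 8.92% of all genes. Hif1a read 12.8, 10.5 and 11.1 FPKM in KO chow livers and 10.9, 10.4 and 12.7 in WT chow livers, and Epas1 read 75.7, 54.8 and 63.5 in KO and 58.4, 51.2 and 58.1 in WT, with overlap in both. Pklr was more variable, with 171, 132 and 174 FPKM in KO and 57.6, 121 and 137 in WT, and the lowest WT value was that of mouse 1.

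In iWAT the diet called no member in either genotype in limma or edgeR. In WT iWAT 2.12% of 14685 genes were called (1.36% higher and 0.769% lower) and 8 of 27 members had an unadjusted p under 0.05 (21.2% of all genes), with DESeq2 calling 5 members (11.0% of all genes). In KO iWAT 0% of genes were called, 7 members had such a p (9.47% of all genes) and DESeq2 called 3 (1.10% of all genes). Adm came closest in WT iWAT, with 7.86, 6.43 and 7.56 FPKM in WD iWAT, against 4.20, 2.92 and 2.18 in chow iWAT (1.04 ± 0.23, adjusted p = 0.05070). In KO iWAT, Pgam1 read 152, 148 and 92.1 FPKM in WD iWAT, against 87.1, 75.5 and 68.4 in chow iWAT (0.73 ± 0.21, adjusted p = 0.370), and Hk1 read 7.06, 5.92 and 4.94 in WD iWAT, against 3.36, 3.97 and 3.45 in chow iWAT (0.59 ± 0.11, adjusted p = 0.235). Both pairs of groups were apart. The interaction of genotype and diet in iWAT called 0 members in limma, edgeR and DESeq2, with 3 at an unadjusted p under 0.05 (6.88% of all genes), among them Egln3 (1.14 ± 0.32, adjusted p = 0.579).

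The values of Eno1 and Gapdh are uncertain. Both have near-identical copies elsewhere in the genome, and whether reads were split between them was not tested. The copy Eno1b read 33.5 to 45.1 FPKM in 6 libraries and 4.66 to 14.2 FPKM in the other 18. The 6 were both tissues of KO chow mouse 2, KO WD mouse 1 and KO WD mouse 3, as numbered in the labels. Eno1 itself read 83.0, 121 and 102 FPKM in WD livers labelled KO, against 151, 161 and 138 in those labelled WT (-0.56 ± 0.17, adjusted p = 0.0369). Summed over both genes, the reads per 1000000 reads of the authors' effective library size were 511, 667 and 619 in WD livers labelled KO, against 832, 884 and 757 in those labelled WT, and 629, 964 and 504 in KO WD iWAT, against 393, 478 and 484 in WT WD iWAT. The sums did not overlap in either tissue, whereas Eno1 alone did not overlap in liver and overlapped in WD iWAT, with 102, 175 and 82.8 FPKM in KO and 71.5, 86.6 and 87.6 in WT. Gapdh, usually among the most abundant RNAs, read only 5.70, 18.8 and 8.09 FPKM in WD livers labelled KO and 11.8, 33.2 and 11.9 in those labelled WT, and from 0.674 to 24.7 FPKM over the 12 iWAT libraries, with no call in any comparison of genotype or diet. The second row of Aldoa (ENSMUSG00000114515) read at most 6.19 FPKM in any library.

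**Figure D5:**
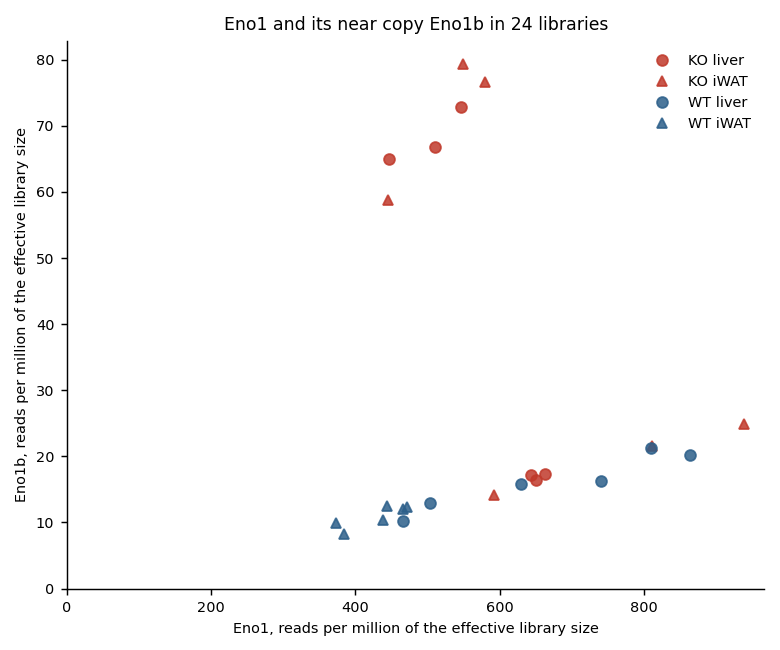
Eno1b (vertical axis) against Eno1 (horizontal axis), both in reads per 1000000 reads of the effective library size on linear axes, for 24 libraries by genotype and tissue. The 6 points at the top, all KO, are both tissues of 3 numbered mice, and the other 18 follow a common low ratio.

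Other genes of these pathways were read from lists chosen for this purpose. Of 24 further glycolytic and gluconeogenic genes tested in WD liver, 3 were called higher in livers labelled KO and 1 lower, or 16.7% in all, against 21.0% of all genes. The higher ones were Pck1, the enzyme that opens gluconeogenesis (1.31 ± 0.27), Pdk2, which inhibits pyruvate dehydrogenase (0.64 ± 0.17), and Mpc2, a subunit of the mitochondrial pyruvate carrier (0.56 ± 0.14), and the lower was Pfkfb4 (-0.96 ± 0.17). The median log2 fold change of the 24 was 0.28, against 0.07 over all genes. Of 22 further HIF regulators and targets in WD liver, 2 were called higher and 1 lower, or 13.6% in all. The higher ones were Egln2 (0.35 ± 0.10), another prolyl hydroxylase, and Cited2 (0.55 ± 0.13), a HIF target that restrains HIF.

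In WD iWAT, 4 of 24 further glycolytic and gluconeogenic genes were called higher in KO and 1 lower, or 20.8% in all, against 4.25% of all genes. Pdk4, another inhibitor of pyruvate dehydrogenase, was higher by 2.61 ± 0.49, the lactate dehydrogenase subunit Ldhb by 1.18 ± 0.22, and both subunits of the pyruvate carrier were higher, Mpc1 by 1.02 ± 0.18 and Mpc2 by 1.04 ± 0.12, while Pdk3 was lower (-0.80 ± 0.15). Of 24 further HIF genes, Cited2 was called lower (-0.93 ± 0.17) and 0 higher, or 4.17% in all, and their median was -0.17, against -0.02 over all genes. Under the Western diet in livers labelled WT, 1 of the 24 further glycolytic genes was called higher (Pfkfb4, 0.78 ± 0.17) and 4 lower (Pck1, Eno3, Pdk1 and Mpc2, from -1.74 to -0.62). Of the 22 HIF genes Hmox1, which breaks down heme, was called higher (1.23 ± 0.31) and Egln2, Bnip3 and Rora lower (-0.80 to -0.37). These are 20.8% and 18.2% of the lists, near the 19.2% of all genes called. In livers labelled KO, Cited2 was called higher on the Western diet (1.06 ± 0.13), 1 of 22 HIF genes or 4.55%. In WT iWAT, 1 of 24 glycolytic genes was called lower (Pdk1, -0.92 ± 0.16) and 1 of 24 HIF genes higher, each 4.17% of its list, against 2.12% of all genes.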

How the data were processed

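RNA from liver and iWAT was sequenced as paired reads from poly-T captured libraries. Per the submitters' processing notes, the tools were HISAT2 2.0.5 and DESeq2 1.20.0 and the genome mm10, while the labels leave out whether reads were counted by strand. The authors deposited FPKM per gene for 24 libraries and tables of their own comparisons with counts, log2 fold changes and p-values, listing rows with p under 0.05. FPKM were tested as log2(FPKM + 1) with limma 3.58.1 (trend and robust) in R 4.3.3, on genes with a mean of at least 0.5 FPKM, with Benjamini-Hochberg adjustment over all genes tested. Each tissue was fitted over its 12 libraries and the tissues were compared in a fit of 24. The fit of 24 treated liver and iWAT libraries as independent and held no term for the mouse. Liver and iWAT of the same group and number may come from the same mouse, as Eno1b was high in both tissues of 3 numbered mice. The p-values between tissues leave out any such pairing. Since 540911 FPKM values (100%) came out as whole reads within 0.01 reads, edgeR 4.0.16 and DESeq2 1.42.0 were run on recovered reads as alternatives. The authors' effective library size was 0.769 to 1.07 times the reads in liver and 1.24 to 1.60 times in iWAT. Scripts were tested on simulated data. The members and lists were chosen with earlier results of these data known. Values per library are given for members called between a pair of groups, in the groups compared. Hif1a and Epas1 are given in every library. Values of other members, also of the most and least abundant, are given in part. Gene names outside these lists, Eno1b and Gm3839, were chosen after their values were seen. Nothing in the labels pairs KO and WT mice of the same number. In chow iWAT, deviations of same-numbered KO and WT mice correlated at 0.184, 0.127 and 0.407, and those of differently numbered mice at -0.327 to 0.258. The value of 0.407 was that of the mice numbered 3, whose libraries had the highest lymphocyte markers in iWAT. A replicate block there called 0 members. A further 56 columns were not used. Results of some genes of the lists are not reported here. Intervals of counting error are not given, since the spread between 3 mice sets the precision.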

Additional observations from a re-analysis of the deposited data

Results flagged for a closer look

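The effect of genotype differed between liver and iWAT on the Western diet for 11 members, by the test of the difference itself in the fit of 24 libraries, a comparison added after the first results were seen. The log2 difference, KO minus WT in liver as labelled minus KO minus WT in iWAT, was -2.39 for Pkm, -2.19 for Hk2, -2.06 for Pfkl and -1.56 for Aldoa. It was -1.22 for Egln3, -1.09 for Pgam1, -1.04 for Eno1, -0.97 for Pfkp, -0.91 for Hk1, -0.90 for Gpi1 and -0.79 for Egln1. Macrophage markers were lower in WD livers labelled KO and brown adipocyte markers higher in KO WD iWAT, and their part was not tested.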

How the results depend on the processing

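Counts of members called moved with the processing as follows. In WD liver 7 members were called at a mean of at least 5 FPKM and 6 without the libraries high in muscle genes, and 3 to 11 when 1 liver was left out. For diet in livers labelled WT these were 5, 3 and 5 to 11. For diet in livers labelled KO DESeq2 called 3, and leaving out 1 liver 1 to 1. The interaction in liver gave 1 with median-of-ratios scaling, 5 with DESeq2, 1 without the libraries highest in muscle genes and 0 to 2 with 1 liver left out. In WD iWAT there were 0 with no filter, 9 with DESeq2, 8 with a replicate block (all higher, the call of Adm being lost), 0 without the libraries high in muscle genes (which leaves 1 WT library) or without the highest (which leaves 2) and 0 to 9 with 1 library left out. For diet in WT iWAT median-of-ratios gave 1, DESeq2 5 and leaving out 1 library 0 to 1, and in KO iWAT DESeq2 gave 3 and leaving out 1 library 0 to 3. The difference in KO effect gave 4 without the libraries high in muscle genes, 6 without the highest and 7 to 12 with 1 library left out, and edgeR moved the share of its calls over all genes that were higher to 25.1%, against 55.4%. Liver against iWAT gave 16 to 18 with 1 library left out and 23 with quantile normalization. Under quantile normalization Tpi1 (-0.45), Pgam1 (-0.30) and Ldha (-0.69) reversed, and the cause was not tested. With a replicate block WD liver gave 0 members higher and 9 lower, and diet in livers labelled WT 5 and 2. Each group holds 3 mice, and members near 0.5 FPKM are limited by depth.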

Other observations

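Gm3839, a near-identical copy of Gapdh, read 1.34 to 20.4 FPKM over the livers and 0 to 0.171 FPKM over the iWAT libraries. Gapdh read 0.674 to 24.7 FPKM over the iWAT libraries and varied within groups in both tissues. Where its reads went was not tested.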
